A study of Danio rerio with 16 samples.

Results

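Interferon regulatory factors (IRFs) were followed as a gene family in the zebrafish heart, in nr4a1 mutants and wild-type fish, before and after injury. The members are the 10 genes irf1a, irf1b, irf2, irf3, irf4a, irf4b, irf5, irf7, irf9 and irf10, chosen by name from the 31351 genes of the count table and not by their values. Of these 10 members, 9 passed the count filter and were tested, and irf1a did not. The samples were ventricles of nr4a1 mutant fish and of wild-type fish, each sampled uninjured (0 dpci, days post-cryoinjury) or at 2, 7 or 21 dpci. The 8 conditions had 2 samples each, 16 in all. Cryoinjury kills tissue at the ventricular apex by freezing. The mutants are homozygous for nc40, a single CRISPR-made allele with an insertion in exon 2 of nr4a1 that is predicted to end the protein before its DNA- and ligand-binding domains. Wild-type fish were injured and sampled at the same days. The fish were adults, and the sources used here do not say whether a sample was 1 ventricle or a pool. The p-values therefore measure a spread between these samples that may in part be technical. That spread was estimated largely from all tested genes together, not from the 2 samples of a condition alone.

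IRFs are transcription factors that share an amino-terminal DNA-binding domain marked by a repeat of tryptophans, and they bind interferon-stimulated response elements in the promoters of antiviral and inflammatory genes. Irf3 and Irf7 are activated by kinases downstream of nucleic acid sensors and switch on type I interferon genes, and Irf9 works with Stat2 in the complex that carries the interferon signal to the nucleus. Irf1 activates genes of the interferon gamma response, and Irf2 competes for the same DNA elements. Irf5 is known from inflammatory macrophages, and Irf4 from lymphocytes, plasma cells and alternatively activated macrophages. Irf10 is found in birds and fish and has been lost in mouse and human. Zebrafish carry a pair of genes for Irf1 and a pair for Irf4.

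Libraries held 14333475 to 27668498 counted reads, with 14333475 to 23618958 in mutants and 15765709 to 27668498 in wild type. Levels are given as CPM, the counts scaled to a common library size, with TMM factors. Because transcript lengths were not used, levels are compared between samples of 1 gene and never between genes. A gene is called higher or lower where the edgeR adjusted p is under 0.05 and the absolute log2 fold change is over 0.5, with p-values adjusted over all 18949 tested genes. Reads of nr4a1 were present in every mutant sample (54.9 to 171 CPM in mutants, 19.4 to 219 CPM in wild type), and since counts per gene do not separate the alleles, they do not check the genotype labels. Cardiomyocyte markers were abundant in all samples, with a summed level of 26345 to 47934 CPM in mutants and 31124 to 51612 CPM in wild type over 6 genes. In whole tissue, fewer cells of a type and less RNA per cell cannot be told apart.

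Of the 9 tested members, 3, 2, 2 and 7 were higher in mutants at 0, 2, 7 and 21 dpci, and no member was called lower at any of these stages. Among all tested genes, 23.7%, 16.8%, 13% and 16.3% were called in either direction, and 11.9%, 8.35%, 7.03% and 9.49% were called higher. Groups that do not overlap were common, at 69.8%, 65.3%, 59.2% and 65.3% of all tested genes, against 5, 7, 6 and 8 of the 9 members. The median log2 fold change of the 9 members was 0.19, 0.25, 0.30 and 0.82 at 0, 2, 7 and 21 dpci, against 0.015, 0.021, 0.00027 and 0.018 over all tested genes. The stage with most called members was therefore the last, when 7 of 9 were called higher beside 9.49% of all genes. The count at 21 dpci was 4 without mutant sample 2, and the count at 7 dpci was 1 without mutant sample 1 or without wild-type sample 2. irf1b was called at all 4 stages, which held for 0.697% of tested genes. Mutant samples lay above wild-type samples at every stage for irf1b and irf9, beside 4.45% of tested genes.

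**Figure D1:**
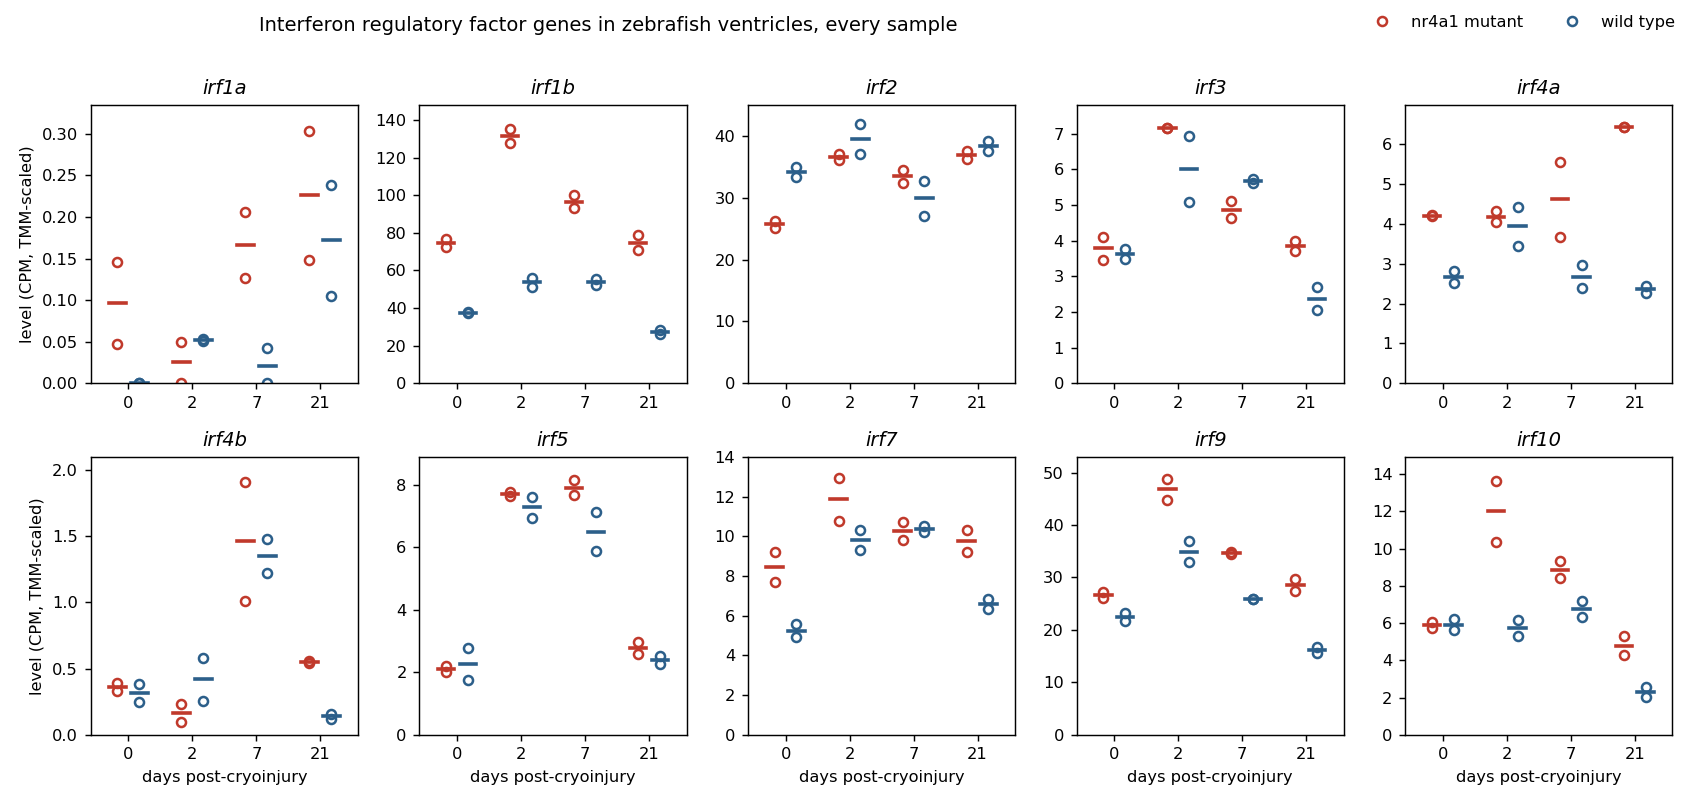
CPM of each of the 10 members (vertical axes, linear from 0, 1 panel per gene) at 0, 2, 7 and 21 dpci, with each circle a sample and each bar the mean of 2 samples, mutants left of wild type. For irf1b, mutant samples sat between 70.7 and 135 CPM and wild-type samples between 25.9 and 56.0 CPM.

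irf1b, a gene for the interferon gamma responsive activator Irf1, had 76.7 and 72.3 CPM in mutants against 37.9 and 37.2 CPM in wild-type hearts at 0 dpci. At 2 dpci it had 135 and 128 CPM in mutants against 51.4 and 56.0 CPM in wild type. At 7 dpci it had 100 and 93.2 CPM in mutants against 55.5 and 52.1 CPM in wild type. No wild-type sample at any stage reached the lowest mutant sample of any stage, so the uninjured mutant heart already held more irf1b RNA than the injured wild-type heart at its highest. At 21 dpci the values were 70.7 and 78.7 CPM in mutants against 28.4 and 25.9 CPM in wild type. Over the stages in order, the log2 fold changes were 0.99 (standard error, SE, 0.0595, edgeR adjusted p = 4.02e-24), 1.29 (SE 0.0560, 8.98e-32), 0.85 (SE 0.0575, 3.15e-21) and 1.46 (SE 0.0659, 6.96e-31). These are fold differences of 1.98, 2.45, 1.80 and 2.74. Averaged over the stages, the log2 fold change was 1.15 (SE 0.0299, edgeR adjusted p = 7.5e-46), and leaving out any 1 of the 16 samples gave 1.13 to 1.17. The averaged difference was called for 3 members, irf1b, irf4a and irf10, and for 13.5% of all tested genes.

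The size of the irf1b difference was not constant over the stages. It was larger at 21 dpci than at 7 dpci by 0.61 on the log2 scale (SE 0.0886, edgeR adjusted p = 5.98e-08), a contrast chosen after the values were seen. Against 0 dpci the difference at 21 dpci was larger by 0.47 (edgeR adjusted p = 1.38e-05), a change under the fold threshold of 0.5. The difference at 2 dpci was larger than at 0 dpci by 0.30 (edgeR adjusted p = 0.00219), also under that threshold. In mutants irf1b at 21 dpci was close to its uninjured level (log2 fold change between the stages 0.0043, edgeR adjusted p = 0.964, 95% interval −0.11 to 0.12). In wild type, irf1b at 21 dpci lay below the uninjured level by a log2 fold change of −0.47 (edgeR adjusted p = 5.73e-08), again short of the fold threshold.

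The second Irf1 gene, irf1a, was hardly expressed in the ventricle. At 0 dpci mutant samples had 1 and 3 reads, against 0 and 0 in wild-type samples, and at 2 dpci 0 and 1 reads, against 1 and 1. At 7 dpci mutant samples had 4 and 2 reads, against 0 and 1 in wild-type samples, and at 21 dpci 3 and 6 reads, against 2 and 4. These sum to 20 reads over all mutant samples and 9 over all wild-type samples. No difference was detectable at this depth: without the count filter, the smallest edgeR adjusted p of irf1a between genotypes was 0.221, at 0 dpci. The log2 ratio of irf1b to irf1a differed by 0.11 between mutants and wild type (exact permutation test within stages, two-sided, p = 0.833), so the data cannot show whether the pair differs in its response to genotype.

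irf2, a gene for the competitor of Irf1 on DNA, went the other way in uninjured hearts. It had 26.3 and 25.1 CPM in mutants against 35.0 and 33.3 CPM in wild-type hearts at 0 dpci, with no overlap. The log2 fold change was −0.41 (SE 0.0758, edgeR adjusted p = 5.36e-06), which passed the p threshold and missed the fold threshold. After injury the genotypes overlapped at each stage. At 2 dpci mutants had 36.1 and 37.1 CPM against 37.0 and 42.0 CPM in wild type. At 7 dpci mutants had 32.5 and 34.4 CPM against 32.7 and 27.1 CPM in wild type, and at 21 dpci 37.6 and 36.3 CPM against 37.6 and 39.1 CPM. The genotype difference at 7 dpci exceeded that at 0 dpci by 0.58 (SE 0.109, edgeR adjusted p = 1.56e-05). Without wild-type sample 2 at 7 dpci, the lowest of that stage, this change was 0.47 and under the fold threshold. In that contrast 2 of 9 members were called, irf2 and irf7, and 14.2% of all tested genes. In mutants, irf2 was higher at 2 than at 0 dpci (0.51 on the log2 scale, edgeR adjusted p = 2.7e-08) and higher at 21 than at 0 dpci (0.53, 2.55e-08), both only just past the fold threshold. Without mutant sample 2 at 0 dpci these were 0.48 and 0.49, and without mutant sample 1 at 21 dpci the change from 0 to 21 dpci was 0.499 and no longer called.

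**Figure D2:**
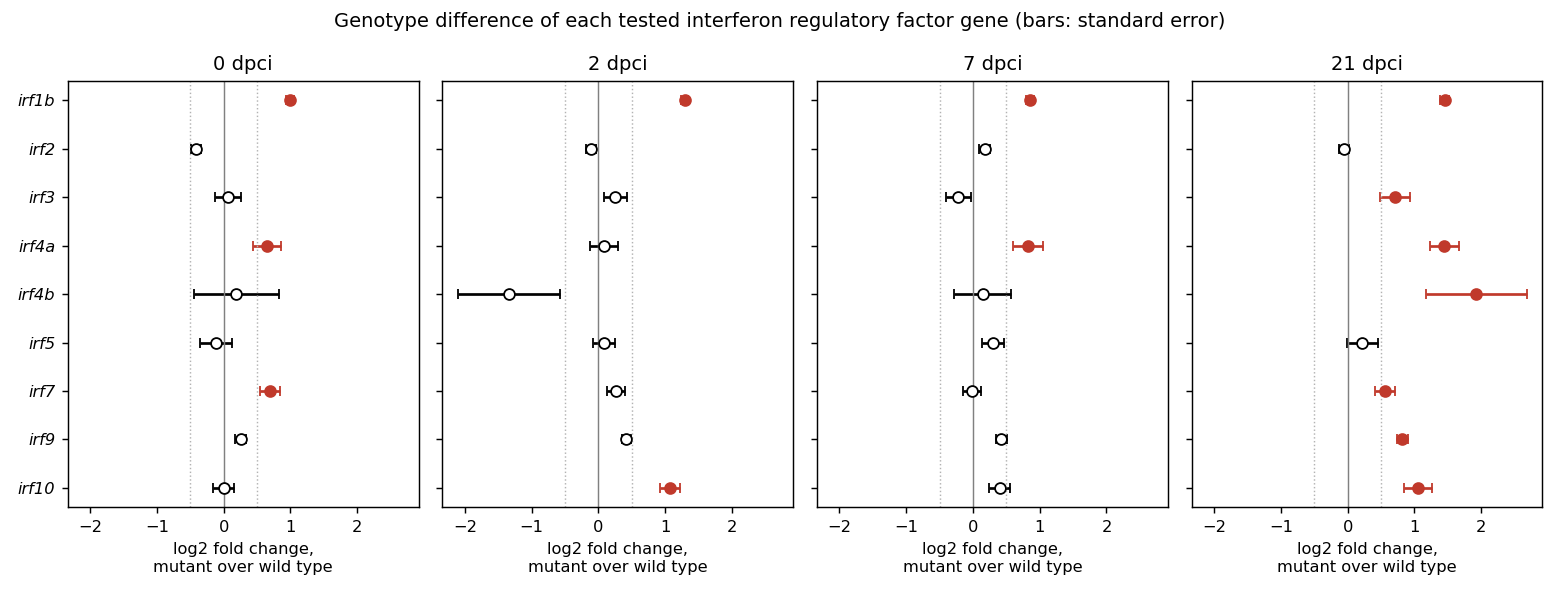
Log2 fold change of each of the 9 tested members, mutant over wild type (horizontal axis, bars of 1 SE of the edgeR fit), in a panel each for 0, 2, 7 and 21 dpci, with filled points for called differences and dotted lines at the fold threshold of 0.5 in either direction. At 21 dpci 7 of 9 points were called higher, and irf1b lay between 0.85 and 1.46 at all stages.

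Among the inducers of type I interferon, irf7 was higher in mutants before injury and late after it, and the genotypes met in between. At 0 dpci it had 9.21 and 7.70 CPM in mutants against 4.92 and 5.56 CPM in wild-type hearts, a log2 fold change of 0.69 (SE 0.147, edgeR adjusted p = 6.74e-05). At 2 dpci it had 12.9 and 10.8 CPM in mutants against 9.30 and 10.3 CPM in wild type (0.27, edgeR adjusted p = 0.115). The mutant samples still lay above those of wild type at 2 dpci, but the difference missed both thresholds. At 7 dpci the groups overlapped, with 9.79 and 10.7 CPM in mutants against 10.5 and 10.2 CPM in wild type (−0.020, 95% interval −0.29 to 0.25). At 21 dpci it had 9.21 and 10.3 CPM in mutants against 6.85 and 6.32 CPM in wild-type hearts, a log2 fold change of 0.56 (SE 0.147, edgeR adjusted p = 0.00142). Leaving out mutant sample 2 at 21 dpci lowered this to 0.48, under the fold threshold. The irf7 difference was smaller at 7 than at 0 dpci by 0.71 (log2 change −0.71, SE 0.200, edgeR adjusted p = 0.00488). This call was lost without mutant sample 1 at 0 dpci (−0.58, edgeR adjusted p = 0.0617). From 7 to 21 dpci the difference grew by 0.58 (edgeR adjusted p = 0.0226), and 4 of the 8 fits with 1 sample left out lost that call (0.50 without mutant sample 1 at 7 dpci, 0.50 without mutant sample 2 at 21 dpci, 0.55 without wild-type sample 1 at 7 dpci and 0.53 without wild-type sample 2 at 21 dpci).

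irf3, whose product acts beside Irf7 in interferon induction, differed between genotypes at 21 dpci. It had 3.72 and 4.0 CPM in mutants against 2.06 and 2.68 CPM in wild-type hearts, a log2 fold change of 0.71 (SE 0.224, edgeR adjusted p = 0.00951). The mutants at 21 dpci were close to their uninjured values of 3.46 and 4.09 CPM, while wild type at 21 dpci lay under its uninjured 3.47 and 3.77 CPM. The call at 21 dpci rested on few reads and was lost without mutant sample 2 (0.66, edgeR adjusted p = 0.0669) or without wild-type sample 1 (0.52, edgeR adjusted p = 0.173). At 2 dpci irf3 had 7.17 and 7.15 CPM in mutants against 5.07 and 6.94 CPM in wild type. At 7 dpci it had 5.1 and 4.62 CPM in mutants against 5.63 and 5.71 CPM in wild type. Mutant samples were thus above wild type at 2 dpci and below it at 7 dpci, in both cases by less than the test could separate (log2 fold changes 0.25 and −0.22, edgeR adjusted p = 0.275 and 0.426). The difference at 21 dpci exceeded that at 7 dpci by 0.93 (SE 0.291, edgeR adjusted p = 0.0118), and by 0.74 without wild-type sample 1 at 21 dpci (edgeR adjusted p = 0.109). In this contrast, chosen after the values were seen, irf1b, irf3 and irf7 were called, and 14.9% of all tested genes.

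irf5, the IRF of inflammatory macrophages, was called in no genotype comparison, although it had the widest swing over the injury course after irf4b. It had 1.99 and 2.19 CPM in mutants against 2.77 and 1.75 CPM in wild-type hearts at 0 dpci, and 7.63 and 7.75 against 7.61 and 6.94 CPM at 2 dpci. At 7 dpci it had 8.14 and 7.66 CPM in mutants against 7.11 and 5.88 CPM in wild type, and at 21 dpci 2.97 and 2.58 against 2.27 and 2.51 CPM. Mutant samples lay just above wild-type samples at 2, 7 and 21 dpci, stages at which the groups did not overlap for most genes. The largest of the 4 genotype differences was 0.30 at 7 dpci (95% interval −0.039 to 0.64, edgeR adjusted p = 0.201).

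irf9 encodes the DNA-binding part of the complex with Stat2. It had 27.2 and 26.1 CPM in mutants against 23.1 and 21.6 CPM in wild-type hearts at 0 dpci, and 48.8 and 44.8 against 32.9 and 37.0 CPM at 2 dpci. At 7 dpci it had 34.5 and 34.9 CPM in mutants against 25.9 and 25.8 CPM in wild type, and at 21 dpci 29.7 and 27.4 against 15.7 and 16.7 CPM. Both mutant samples were above both wild-type samples at each stage. Over the stages in order, the log2 fold changes were 0.25 (SE 0.0791, edgeR adjusted p = 0.0066), 0.42 (SE 0.0722, 1.63e-06), 0.42 (SE 0.0784, 1.05e-05) and 0.82 (SE 0.0873, 1.24e-12). All 4 passed the p threshold and the last alone the fold threshold. Without wild-type sample 2 at 2 dpci the difference there was 0.51 and would be called. The difference at 21 dpci exceeded that at 0 dpci by 0.57 (SE 0.118, edgeR adjusted p = 5.71e-05), and this call held in each of the 8 fits with 1 sample left out (0.51 to 0.63). In that contrast 3 of 9 members were called, irf4a, irf9 and irf10, and 24% of all tested genes.

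The gene for Irf9's partner Stat2 had another profile. stat2 averaged 72.1 ± 1.4 CPM in mutants against 122 ± 3.80 CPM in wild type at 0 dpci (SD, n = 2 each), and was lower at 2 dpci by a like amount (log2 fold changes −0.75 and −0.75, edgeR adjusted p = 9.73e-24 and 5.39e-24). At 7 dpci stat2 averaged 95.3 ± 0.106 CPM in mutants against 132 ± 4.18 CPM in wild type (SD, n = 2 each), which was not called. At 21 dpci stat2 averaged 99.2 ± 0.885 CPM in mutants against 79.7 ± 1.52 CPM in wild type (SD, n = 2 each), a log2 fold change of 0.32. That value is under the fold threshold and was not called.

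irf10 showed no genotype difference in uninjured hearts, with 6.08 and 5.75 CPM in mutants against 6.2 and 5.65 CPM in wild-type hearts (log2 fold change −0.0033, 95% interval −0.33 to 0.32). At 2 dpci it had 10.4 and 13.6 CPM in mutants against 6.18 and 5.30 CPM in wild type. The mutant level was thus higher after injury, while wild-type samples at 2 dpci stayed near their uninjured values. The log2 fold change at 2 dpci was 1.07 (SE 0.156, edgeR adjusted p = 3.13e-08). At 7 dpci it had 8.40 and 9.31 CPM in mutants against 7.17 and 6.30 CPM in wild type (0.40, edgeR adjusted p = 0.0527). At 21 dpci it had 4.26 and 5.31 CPM in mutants against 2.06 and 2.56 CPM in wild type (1.06, SE 0.213, edgeR adjusted p = 4e-05). The genotype difference of irf10 at 2 dpci exceeded that at 0 dpci by 1.08 (SE 0.227, edgeR adjusted p = 8.27e-05), and irf10 was the single member called in that contrast, beside 22.2% of all tested genes (2 members without mutant sample 2 at 0 dpci). At 21 dpci it exceeded that at 0 dpci by 1.06 (SE 0.270, edgeR adjusted p = 0.00102). Both interaction calls held with any 1 sample left out (0.88 to 1.28 and 0.89 to 1.22).

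irf4a, a gene for the lymphocyte and macrophage factor Irf4, had 4.22 and 4.19 CPM in mutants against 2.52 and 2.82 CPM in wild-type hearts at 0 dpci (log2 fold change 0.65, SE 0.211, edgeR adjusted p = 0.00845). At 2 dpci the groups overlapped, with 4.31 and 4.05 CPM in mutants against 4.44 and 3.44 CPM in wild type (0.084, 95% interval −0.33 to 0.50). At 7 dpci it had 5.57 and 3.67 CPM in mutants against 2.96 and 2.39 CPM in wild type (0.82, SE 0.219, edgeR adjusted p = 0.00242). The difference was clearest at 21 dpci, where the mutants had the highest irf4a of any condition and wild type the lowest. There it had 6.44 and 6.42 CPM in mutants against 2.27 and 2.45 CPM in wild type (1.45, SE 0.215, edgeR adjusted p = 5.11e-08). The call at 21 dpci held with any 1 sample left out (1.39 to 1.5). The call at 0 dpci was lost without wild-type sample 1 (0.57, edgeR adjusted p = 0.0777). The call at 7 dpci was lost without mutant sample 1 (0.49, edgeR adjusted p = 0.234) or without wild-type sample 2 (0.67, edgeR adjusted p = 0.0739). The growth of the difference between 0 and 21 dpci was 0.79 (edgeR adjusted p = 0.0342), a call that 7 of 8 fits with 1 sample left out did not keep (0.71 to 0.88).

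irf4b, the other Irf4 gene, was counted with 2 to 37 reads a sample. At 0 dpci mutant samples had 7 and 8 reads, against 6 and 9 in wild-type samples, and at 2 dpci 4 and 2 reads, against 11 and 5. At 7 dpci mutant samples had 37 and 16 reads, against 25 and 29 in wild-type samples. At 21 dpci mutant samples had 11 and 11 reads, against 3 and 2 in wild-type samples. Mutant samples were above wild type at 21 dpci and below it at 2 dpci, and the groups overlapped at the other stages. The log2 fold change at 21 dpci was 1.93 (SE 0.751, 95% interval 0.43 to 3.43, edgeR adjusted p = 0.0393), and it lost its call in 4 of 4 fits with 1 sample left out (1.76 to 2.15, edgeR adjusted p up to 0.163). At 2 dpci it was −1.33 (edgeR adjusted p = 0.179). The log2 ratio of irf4b to irf4a was lower in mutants by 0.52 (difference −0.52, exact permutation test within stages, two-sided, p = 0.0463, where 0.00154 is the smallest the design allows). The p was 0.222 without the 2 dpci samples and 0.213 without the 7 dpci samples. Without the 21 dpci samples the difference was −0.81 (exact permutation p = 0.00926, the smallest possible there), and with 1 sample left out the exact permutation p lay between 0.0139 and 0.105, so the result depends on which samples are used.

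Within each genotype, injury was followed by higher levels of most members. From 0 to 2 dpci, 6 of 9 members rose in mutants, beside 24.4% of all genes called higher and 45.2% called in either direction. In wild type 6 of 9 rose as well, beside 22.9% and 41.9%. irf1b, irf3, irf5 and irf9 rose in both genotypes, irf2 and irf10 were called in mutants, and irf4a and irf7 in wild type. Under the fold threshold, irf7 also rose in mutants (0.48, edgeR adjusted p = 0.0014) and irf2 in wild type (0.21, edgeR adjusted p = 0.00912). The test of a different rise between genotypes, the contrast of 2 with 0 dpci given above, was called for irf10 alone. irf1b (0.30, edgeR adjusted p = 0.00219) and irf2 (0.30, edgeR adjusted p = 0.0216) passed the p threshold there and missed the fold threshold. For irf4a it gave −0.57 (edgeR adjusted p = 0.135) and for irf7 −0.42 (edgeR adjusted p = 0.0933). irf5 had the largest change, with log2 fold changes of 1.88 in mutants and 1.68 in wild type (edgeR adjusted p = 3.87e-13 and 6.56e-12). irf9 rose by 0.81 in mutants and 0.64 in wild type. Calls in wild type were lost for irf4a without sample 1 at 0 dpci (0.48) or sample 1 at 2 dpci (0.39), and for irf1b (0.47) and irf3 (0.51) without sample 2 at 2 dpci.

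**Figure D3:**
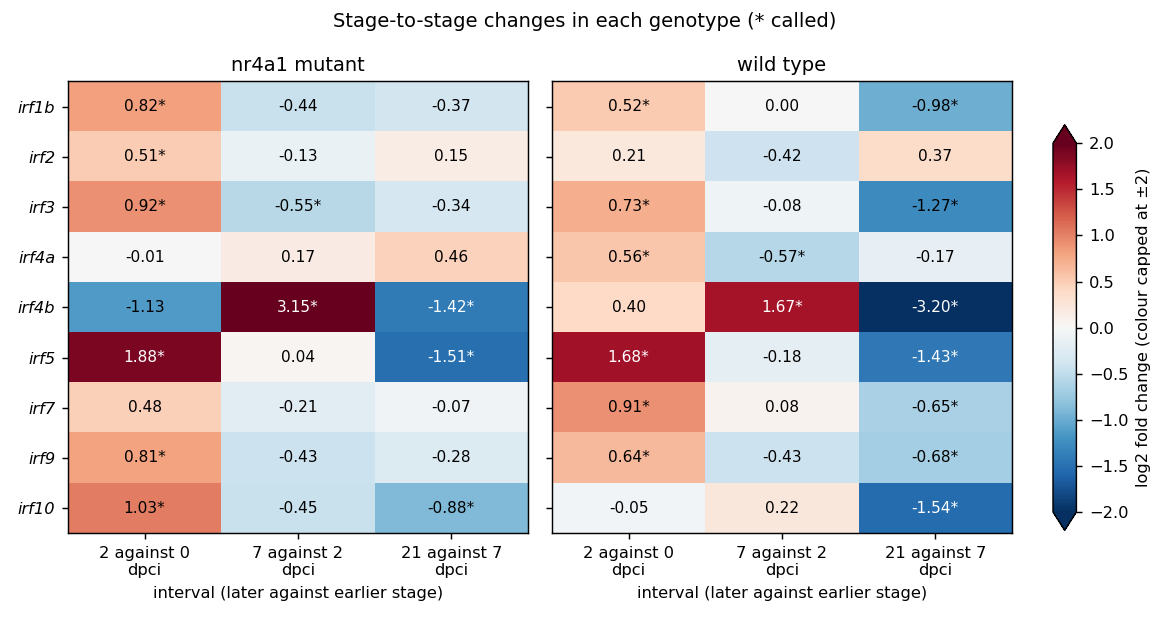
Log2 fold changes of the 9 tested members between successive stages (columns), with mutants left and wild type right, as a number and a colour in each cell (colour limited to 2 in either direction) and stars for called changes. From 7 to 21 dpci 3 members fell in mutants and 7 in wild type.

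Between 2 and 7 dpci, 2 of 9 members were called in each genotype, beside 21.8% of all tested genes in mutants and 23.4% in wild type. The p threshold alone was passed by 5 members in mutants and 4 in wild type. irf9 changed by −0.43 in both genotypes and irf1b by −0.44 in mutants, under the fold threshold (edgeR adjusted p = 9.83e-07 in mutants and 2.61e-06 in wild type for irf9, and 5.46e-11 for irf1b). irf4b rose in both genotypes, by a log2 fold change of 3.15 in mutants (SE 0.622, edgeR adjusted p = 1.94e-05) and 1.67 in wild type (SE 0.517, edgeR adjusted p = 0.00615). The wild-type change was 1.15 and not called without sample 2 at 2 dpci. irf3 fell in mutants (−0.55, edgeR adjusted p = 0.00994) and irf4a in wild type (−0.57, edgeR adjusted p = 0.03). The irf3 call was lost without mutant sample 2 at 7 dpci (−0.53), and the irf4a call without wild-type sample 1 at 2 dpci (−0.43) or sample 2 at 7 dpci (−0.45). In mutants 4 members were called without sample 2 at 2 dpci.

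From 7 to 21 dpci, 3 of 9 members fell in mutants and 7 of 9 in wild type, beside 17% and 20.5% of all tested genes called lower, and 29.8% and 37% called in either direction. irf4b, irf5 and irf10 fell in both genotypes. irf5 changed by −1.51 in mutants and −1.43 in wild type on the log2 scale, and irf10 by −0.88 in mutants and −1.54 in wild type. irf4b changed by −1.42 in mutants and −3.20 in wild type. The mutant call of irf4b was lost in 3 of 4 fits with 1 sample left out (−0.89 without sample 1 at 7 dpci, and −1.4 and −1.43 without sample 1 or 2 at 21 dpci). In wild type irf1b (−0.98), irf3 (−1.27), irf7 (−0.65) and irf9 (−0.68) were called too, where the mutant changes were −0.37, −0.34, −0.066 and −0.28. The test of the difference between the genotypes in this step is the contrast of 21 with 7 dpci given above, which was called for irf1b, irf3 and irf7 and reached 0.40 for irf9 (edgeR adjusted p = 0.00728, under the fold threshold).

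Compared with uninjured hearts, 21 dpci mutants had higher irf2 and irf4a (log2 fold changes 0.53 and 0.61), and wild type had lower irf3 and irf10 (−0.62 and −1.36), beside 20% of all tested genes called in mutants and 23.4% in wild type. irf10 in wild type had 6.2 and 5.65 CPM at 0 dpci and 2.06 and 2.56 CPM at 21 dpci. The irf3 call in wild type was lost without sample 2 at 0 dpci (−0.56, edgeR adjusted p = 0.0913) or sample 1 at 21 dpci (−0.43, edgeR adjusted p = 0.236).

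Ordered by condition means, mutants at 2 dpci had the highest level of irf1b, irf3, irf7, irf9 and irf10, and wild type at 21 dpci had the lowest level of irf1b, irf3, irf4a, irf4b, irf9 and irf10. For irf1b the order was mutants at 2, 7, 21 and 0 dpci, then wild type at 7, 2, 0 and 21 dpci, with overlapping samples between mutants at 21 and 0 dpci and between wild type at 7 and 2 dpci. For irf9 the mutants at 2 dpci came first, wild type at 2 dpci overlapped mutants at 7 dpci, and mutants at 21 and 0 dpci lay above wild type at 7, 0 and 21 dpci. Across the 16 samples, which share genotype and stage, log2 CPM of irf1b and irf9 had a Pearson correlation of 0.890, the highest among the pairs of tested members. irf2 and irf4b had the lowest (−0.371).

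Genes whose profile over the 16 samples was most like that of irf1b were psmb9a (Pearson r = 0.976), acod1 (0.954) and psmb12 (0.946). psmb9a and psmb12 encode proteasome subunits of the immunoproteasome type, and acod1 encodes the enzyme that makes itaconate in activated macrophages. All 3 were called higher in mutants at all 4 stages. For psmb9a the log2 fold changes were 1.28, 1.19, 0.92 and 1.77 at 0, 2, 7 and 21 dpci. Because the 3 genes were picked for profiles like that of irf1b over these same samples, a shared genotype difference follows from the choice. The genes most like irf5 were gmip (0.988), the complement and macrophage marker c1qb (0.982) and mfsd6a (0.981), while with the stage means removed these correlations were 0.806, 0.374 and 0.629, against 0.990, 0.967 and 0.959 for the genes like irf1b. The gene most like irf3 was ifit16 (0.960), a member of the interferon-induced ifit family. The nearest genes were slc12a9 for irf7 (0.950), lrrc15 for irf9 (0.970), ttll4 for irf10 (0.960), ccdc173 for irf4a (0.896), prf1.7, a perforin gene of killer lymphocytes, for irf4b (0.904, and 0.602 with the stage means removed), and gcc1 for irf2 (0.871).

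The pathway around the members was read from gene lists. Of 31 tested genes for sensors, adaptors and kinases upstream of Irf3, Irf5 and Irf7, mutants had 7 higher and 3 lower at 0 dpci, 3 and 1 at 2 dpci, 1 and 1 at 7 dpci, and 6 and 1 at 21 dpci. sting1, the adaptor of cytosolic DNA sensing, was higher at 0 dpci (2.01 ± 0.779 CPM in mutants against 0.776 ± 0.130 CPM in wild type, SD, n = 2 each). tank, a scaffold of the kinases that activate Irf3, was lower at 0 dpci (2.95 ± 0.456 CPM in mutants against 9.18 ± 0.221 CPM in wild type, SD, n = 2 each). mavs, the adaptor of cytosolic RNA sensing, was lower in mutants at 21 dpci by a log2 fold change of −0.69 (edgeR adjusted p = 4.47e-17). Of all tested genes, 23.7%, 16.8%, 13% and 16.3% were called in either direction at 0, 2, 7 and 21 dpci. The share of the upstream list was below this at 2 and 7 dpci and above it at 0 and 21 dpci.

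Of 20 tested genes for interferons, their receptors and Jak-Stat signalling, 3 were higher and 2 lower at 0 dpci, 4 and 1 at 2 dpci, 2 and 0 at 7 dpci, and 7 and 0 at 21 dpci. Beside these, 23.7%, 16.8%, 13% and 16.3% of all tested genes were called in either direction at these stages. socs1b, a feedback inhibitor of Jak kinases, was higher in mutants at 21 dpci (1.90 ± 0.255 CPM in mutants against 0.334 ± 0.0501 CPM in wild type, SD, n = 2 each). ifngr1, a gene for an interferon gamma receptor, was higher at 2 dpci (1.97 ± 0.176 CPM in mutants against 0.495 ± 0.0273 CPM in wild type, SD, n = 2 each). The interferon gamma gene ifng1 had at most 5 counts in a sample and was not tested (this gene was picked out after its values were seen).

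Of 45 tested interferon-stimulated genes, 10 were higher and 5 lower at 0 dpci, 15 and 0 at 2 dpci, 7 and 6 at 7 dpci, and 22 and 0 at 21 dpci. Their median log2 fold change was 0.017, 0.35, 0.11 and 0.64 at those stages. Of all tested genes, 23.7%, 16.8%, 13% and 16.3% were called in either direction. As for the IRF genes, 21 dpci was the stage with the most calls of this list. At 21 dpci and at 2 dpci the called genes with the largest positive genotype difference were antiviral Mx genes. mxc had 6.91 ± 0.111 CPM in mutants against 0.945 ± 0.155 CPM in wild type at 21 dpci (SD, n = 2 each). mxf had 5.72 ± 0.749 CPM in mutants against 1.64 ± 0.216 CPM in wild type at 2 dpci (SD, n = 2 each). Both were already higher in uninjured mutants, mxc with 3.39 ± 0.312 against 0.818 ± 0.188 CPM and mxf with 6.54 ± 0.255 against 1.66 ± 0.189 CPM. ifit8 had a log2 fold change of −2.25 at 7 dpci (edgeR adjusted p = 0.000149), and rsad2, which encodes viperin, one of −1.27 at 0 dpci (edgeR adjusted p = 1.11e-09). Among 7 tested genes with irf in their name that are not members, irf8, a gene needed for macrophage fate in zebrafish, was called at 21 dpci (1.01, edgeR adjusted p = 5.12e-14) and irf2bpl at 2 dpci (0.79, edgeR adjusted p = 3.78e-11). irf2a, a further gene with an Irf2 name, is among these 7 and was not called between genotypes at any stage.

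**Figure D4:**
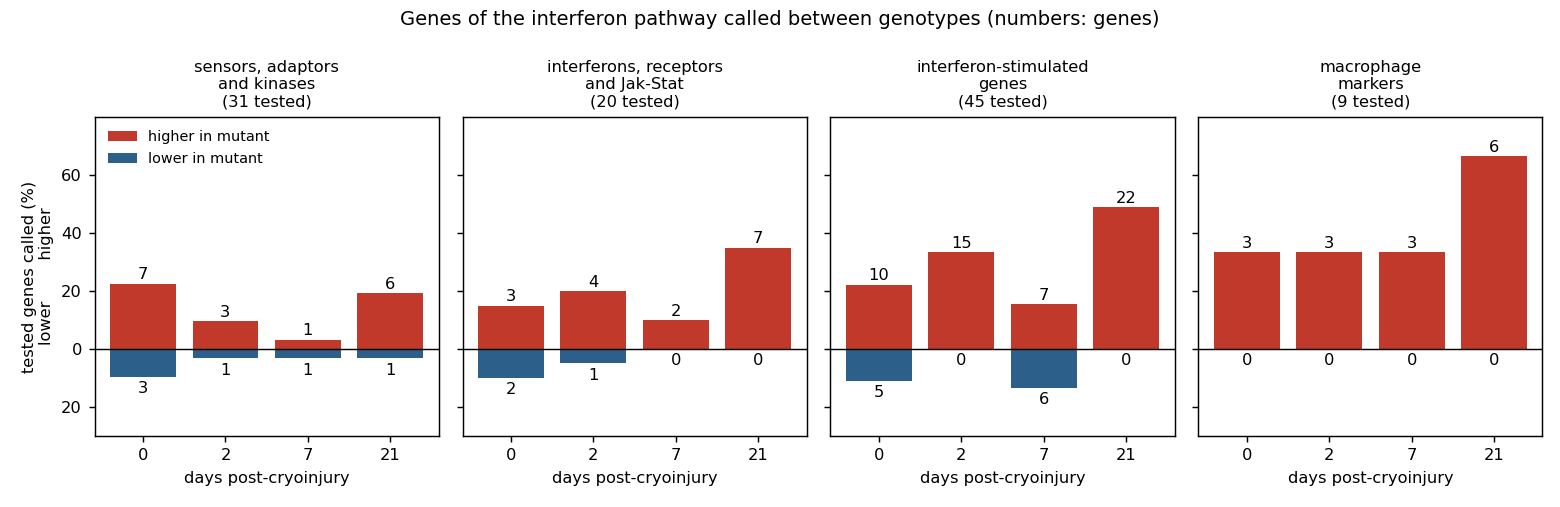
Share of the tested genes of each list called higher (above 0) or lower (below 0) in mutants against wild type (vertical axis, percent, with the number of genes at each bar) at 0, 2, 7 and 21 dpci, for the 3 pathway lists and the macrophage markers. At 21 dpci 22 of 45 interferon-stimulated genes and 6 of 9 macrophage markers were called higher and none lower. Of all tested genes, 9.49% were called higher at that stage.

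Of the immune cell marker lists, the macrophage and neutrophil lists had higher sums in mutants at each stage, the neutrophil list barely so at 2 dpci. The 9 tested macrophage markers summed to 263 to 269 CPM in mutants against 235 to 237 CPM in wild-type hearts at 0 dpci, 1366 to 1376 against 1097 to 1113 CPM at 2 dpci, 940 to 946 against 750 to 773 CPM at 7 dpci, and 344 to 348 against 248 to 251 CPM at 21 dpci. Among these 9, lgmn had up to 15484 reads in a sample and the next, marco, up to 2462, so lgmn can weigh heavily in the sums. Of the 9, 3 were called higher at each of 0, 2 and 7 dpci and 6 at 21 dpci, with none called lower. Beside these, 11.9%, 8.35%, 7.03% and 9.49% of all tested genes were called higher at 0, 2, 7 and 21 dpci. The defining marker mpeg1.1 had 32.1 ± 2.59 CPM in mutants against 14.7 ± 0.858 CPM in wild type at 21 dpci (SD, n = 2 each). All 9 rose from 0 to 2 dpci and all 9 fell from 7 to 21 dpci in both genotypes, as irf5 did. From 0 to 2 dpci 24.4% of all tested genes were called higher in mutants and 22.9% in wild type. From 7 to 21 dpci 17% were called lower in mutants and 20.5% in wild type. In wild type irf1b, irf3, irf7 and irf9 also rose and fell at these steps, and in mutants irf10 did. The 7 neutrophil markers summed to 56.6 to 60.8 CPM in mutants against 25.4 to 26.8 CPM in wild-type hearts at 0 dpci, 78.0 to 79.3 against 72.8 to 77.9 CPM at 2 dpci, 71.6 to 76.4 against 42.2 to 43.0 CPM at 7 dpci, and 47.9 to 52.9 against 35.8 to 38.4 CPM at 21 dpci. Calls among these 7 were 5 up and 1 down at 0 dpci and none at 2 dpci. At 7 dpci 5 were up, and at 21 dpci 3 were up and 1 down. The shares of all tested genes called in either direction were 23.7%, 16.8%, 13% and 16.3% at 0, 2, 7 and 21 dpci. Summed B and plasma cell markers were higher in mutants at 7 dpci (27.7 to 27.9 CPM against 11.6 to 13.7 CPM in wild type). Both genotypes had their highest irf4b at that stage, with no genotype difference called in it (log2 fold change 0.15, edgeR adjusted p = 0.847). In wild type these markers already summed to 11.7 to 12.3 CPM at 2 dpci, when wild-type irf4b was lower. At 21 dpci, when irf4a differed most, the sums overlapped (5.35 to 6.27 CPM in mutants against 5.31 to 6.80 CPM in wild type). These sums held opposite changes. At 21 dpci igic1s1 was called higher in mutants (1.35 ± 0.303 against 0.555 ± 0.110 CPM, SD, n = 2 each). In contrast, cd22 was called lower (2.30 ± 0.104 against 4.05 ± 0.914 CPM). T and NK cell markers summed to 11.7 to 11.8 CPM in mutants against 11.9 to 14.2 CPM in wild-type hearts at 0 dpci. At that stage 1 of 7 tested genes was called, beside 23.7% of all tested genes. It was cd28, lower in mutants (1.03 ± 0.287 against 5.54 ± 0.522 CPM, SD, n = 2 each). The median log2 fold change of the 7 was 0.90, so the lower sum does not stand for the list. The T and NK sums overlapped at 2 and 7 dpci, and were 12 to 12.8 against 10.1 to 11.4 CPM at 21 dpci. At 21 dpci 1 of 7 tested genes of this list was called, beside 16.3% of all tested genes. The part of these cells in the IRF differences was not tested.

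Clock genes, whose levels follow the time of day, also differed between genotypes, in both directions. Of 32 tested, mutants had 16 higher and 10 lower at 0 dpci, 11 and 5 at 2 dpci, 16 and 9 at 7 dpci, and 4 and 15 at 21 dpci. Of all tested genes, 23.7%, 16.8%, 13% and 16.3% were called in either direction at these stages. The period gene per1a had log2 fold changes of 3.59 at 0 dpci and −2.0 at 21 dpci. The hour of sampling is not given in the sources used here, and its part in the IRF differences was not tested.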

How the data were processed

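RNA of zebrafish ventricles was sequenced at Novogene. The authors checked reads with FastQC, aligned them with STAR and counted them per gene with featureCounts, and the deposited table holds raw, unnormalized read counts under gene symbols. The submitters' processing notes name GRCz11 and danRer11. Tool versions, annotation, strand setting and the handling of reads with several alignments are not given in the sources used here, so reads shared by paralogs could have been split or dropped.

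The analysis used edgeR 4.0.16 in R 4.3.3. A gene was tested if 2 or more samples had 10 or more reads, which left 18949 of 31351 genes. Libraries were scaled by TMM and fitted with glmQLFit over all 16 samples with 1 coefficient per condition, without a batch term. The authors report accounting for batch effects, but no batch is named in the sources used here, so this fit leaves it out. Contrasts were tested with glmQLFTest and p-values adjusted over all tested genes by Benjamini-Hochberg. Of the 70.2 degrees of freedom of each member's test, 62.2 came from the spread shared over all tested genes. Very small p-values therefore do not stand for that much replication of a single gene. Standard errors follow from the F statistic, and intervals cover 95%. Log2 CPM for correlations used a prior count of 2, and count ratios had 0.5 added to each count. The thresholds (0.05 and 0.5) are those the study used. Alternatives used DESeq2 1.42.0, RLE scaling, glmTreat, other filters, subsets of samples and a replicate block.

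The members and lists were chosen with earlier results of these data known. Named are all members, the extreme called genes of each list, defining markers, the genes most like each member (Pearson correlation, the 3 highest, leaving out clone-style names) and nr4a1. Replicates of 1 condition differed by more than counting noise. On simulated counts of 18371 genes with 200 changed by 1 on the log2 scale at 2 dpci, edgeR recovered 197 with 1 false call. The changed genes were drawn from those with more reads, and the same spread was assumed for every gene. The recovery therefore does not cover a member with as few reads as irf4b.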

Additional observations from a re-analysis of the deposited data

Results flagged for a closer look

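The genotype difference (mutant minus wild type on the log2 scale) was called as changed between stages for some members, by the interaction terms of the edgeR fit. Between 0 and 2 dpci it grew for irf10 by 1.08 (edgeR adjusted p = 8.27e-05). Between 0 and 7 dpci it moved up for irf2 by 0.58 (edgeR adjusted p = 1.56e-05) and down for irf7 (−0.71, edgeR adjusted p = 0.00488). Between 0 and 21 dpci it grew for irf4a by 0.79 (edgeR adjusted p = 0.0342), for irf9 by 0.57 (edgeR adjusted p = 5.71e-05) and for irf10 by 1.06 (edgeR adjusted p = 0.00102). Between 7 and 21 dpci, a contrast added after the values were seen, it grew for irf3 by 0.93 (edgeR adjusted p = 0.0118), for irf1b by 0.61 (edgeR adjusted p = 5.98e-08) and for irf7 by 0.58 (edgeR adjusted p = 0.0226). These contrasts share samples, so they are not independent of each other. The members called were 1, 2, 3 and 3 of 9 in these contrasts in the order given, beside 22.2%, 14.2%, 24% and 14.9% of all tested genes, so most of the counts lie near the share over all genes. With 1 sample left out, irf4a lost its call in 7 of 8 fits and irf7 between 7 and 21 dpci in 4 of 8. The calls of irf2 and irf7 between 0 and 7 dpci and of irf3 between 7 and 21 dpci were each lost in 1 of 8 fits.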

How the results depend on the processing

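Counts of called members, count ratios and each member's values were recomputed with RLE or upper-quartile factors, DESeq2, other count filters, glmTreat, a replicate block, the compared groups alone and samples left out. No setting that kept all samples reversed the direction of a member. With all samples kept, the number of members higher in mutants stayed within 1.5 times the values given (3, 2, 2 and 7) except under glmTreat, which tests against the fold threshold itself. glmTreat called 1 member at 0 dpci and 1 at 7 dpci (irf1b at both) and 4 at 21 dpci (irf1b, irf4a, irf9 and irf10). It called 3 in wild type from 0 to 2 dpci, 1 from 2 to 7 dpci in wild type and in mutants, 1 from 0 to 21 dpci in wild type and 0 in mutants. Of the stage contrasts of the genotype difference, it called 0 between 0 and 7 dpci, 1 between 0 and 21 dpci (irf10) and 0 between 7 and 21 dpci. RLE factors and DESeq2 each called 1 member from 0 to 21 dpci in mutants, and DESeq2 and the fit of the compared groups alone each called 1 from 2 to 7 dpci in wild type. DESeq2 also lost irf4b at 21 dpci (DESeq2 adjusted p = 0.0787), irf4a in wild type from 0 to 2 dpci (0.0651), the change of the genotype difference of irf4a between 0 and 21 dpci (0.0924) and that of irf7 between 7 and 21 dpci (0.0891). The cause of these changes was not tested, beyond the stricter hypothesis of glmTreat.

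With 1 sample left out, an arm holds 1 sample, which is assumed to vary like the other conditions. The counts of members higher in mutants were then 2 to 3 (0 dpci), 2 to 3 (2 dpci), 1 to 2 (7 dpci, the lower without mutant sample 1 or wild-type sample 2) and 4 to 6 (21 dpci, the lower without mutant sample 2). Between stages, members called in mutants numbered 5 to 7 from 0 to 2 dpci, 2 to 4 from 2 to 7 dpci, 2 to 3 from 7 to 21 dpci and 1 to 2 from 0 to 21 dpci, and in wild type 4 to 6, 1 to 3, 7 to 8 and 2 to 3. Called contrasts of the genotype difference numbered 1 to 2 for 2 against 0 dpci, 1 to 2 for 7 against 0 dpci, 2 to 3 for 21 against 0 dpci and 2 to 4 for 21 against 7 dpci, and the averaged difference 3 to 4. Differences that were not called changed sign for irf3 (range −0.061 to 0.18), irf10 (−0.070 to 0.064), irf5 (−0.41 to 0.25) and irf4b (−0.095 to 0.53) at 0 dpci, irf4a (−0.082 to 0.28) at 2 dpci, and irf4b (−0.38 to 0.52) and irf7 (−0.069 to 0.062) at 7 dpci. The log2 ratio of irf1b to irf1a lay between −0.071 and 0.29 with 1 sample left out, and was −0.53 without the 2 dpci, 0.58 without the 7 dpci and −0.22 without the 21 dpci samples, and 0.57 with 2 added to each count (exact permutation p = 0.0864). The ratio of irf4b to irf4a lay between −0.64 and −0.40 with 1 sample left out, and was −0.26 without the 2 dpci samples (exact permutation p = 0.222) and −0.46 without the 7 dpci samples (exact permutation p = 0.213), −0.81 without the 21 dpci samples (exact permutation p = 0.00926) and −0.54 with 2 added to each count (exact permutation p = 0.00463).

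Sample numbers are shared between conditions but do not pair samples: over 28 pairs of conditions, deviations of samples with the same number correlated by −0.031 to 0.032. With sample number as a replicate block, 3, 2, 2 and 7 members were called higher in mutants at 0, 2, 7 and 21 dpci, as without it. Depth limits irf1a and irf4b, and 2 samples per condition limit every comparison.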
